A study of Mus musculus with 6 samples.

Results

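The mitochondrial carriers of the Slc25 family were examined in whole lung of mice lacking Nfat5 in endothelial cells, against controls, after 7 days of hypoxia. Members were the probe sets whose platform gene symbol begins with Slc25a and a number, which gave 45 protein-coding genes of 24704 tested. NFAT5 is a transcription factor that responds to osmotic stress. EC knockout mice, labelled Nfat5(EC)-/-, were adults of both sexes aged 10 to 12 weeks that had received tamoxifen intraperitoneally, 1 mg on each of 5 days. Controls, labelled Nfat5fl/fl, were of the same age range and received miglyol, the solvent, in its place. Both groups recovered for 2 to 3 weeks and had their lungs flushed with cold Ringer solution. Genotype and tamoxifen therefore changed together, and their parts in any difference cannot be told apart. The labels do not name the driver of the endothelial deletion. The series design gives 4 mice per group, of which 3 arrays each were analysed here, and states that preparations holding other tissue or with a poor expression response to hypoxia were removed.

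Slc25 proteins carry metabolites, cofactors and ions through the inner mitochondrial membrane, most of them as exchangers of 2 substrates. They supply ADP and phosphate for ATP synthesis, export citrate for lipid synthesis, move reducing equivalents inward, and deliver iron, folate, coenzyme A and glutathione to the matrix. A few act elsewhere: Slc25a17 sits in the peroxisomal membrane and Slc25a46 in the outer mitochondrial membrane, so the family name does not fix the location of every member. In lung, the pathway from mitochondrial citrate to fatty acids serves surfactant production in alveolar type 2 cells.

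The arrays gave log2 expression values, and differences below are log2 fold changes of EC knockout minus control with limma's standard error (SE). A gene was called when its Benjamini-Hochberg adjusted p over all 24704 genes was under 0.05. Each array had a lower quartile of 2.02 and a median of 2.98. Nfat5 stood at 4.46, 4.48 and 3.89 on EC knockout replicates 1, 3 and 4, against 6.65, 6.58 and 6.30 on control replicates 1, 3 and 4. The groups did not overlap, and the fall was −2.23 ± 0.23 (adjusted p = 0.00151). Lung markers were present in both groups. The mean level of 8 alveolar type 2 genes was 8.73 to 9.17 on EC knockout arrays and 9.25 to 9.39 on control arrays. These ranges did not overlap, with 1 gene higher and 2 lower. For 16 endothelial genes it was 6.66 to 6.96 on EC knockout arrays and 6.92 to 7.12 on control arrays; 5 of them rose and 6 fell. The endothelial ranges overlapped. Alveolar type 1 means overlapped too, at 7.63 to 7.76 on EC knockout arrays and 7.75 to 8.09 on control arrays. So did ciliated means (4.21 to 4.57 and 4.49 to 4.77) and those of club cells and of T and B cells. Like those of alveolar type 2 cells, markers of some other cell types separated the groups. The mean of 5 alveolar macrophage genes was 4.63 to 4.99 on EC knockout arrays and 5.34 to 5.52 on control arrays, with 1 gene higher and 1 lower. For 7 smooth muscle and pericyte genes it was 6.15 to 6.50 on EC knockout arrays and 5.41 to 5.95 on control arrays, with 2 higher and 0 lower. For 5 fibroblast genes it was 6.76 to 6.84 on EC knockout arrays and 6.91 to 7.04 on control arrays, with 2 higher and 1 lower. The part of these markers in the results below was not tested. The median level of 106 snoRNAs was 6.43 to 7.43 on EC knockout arrays and 4.01 to 4.20 on control arrays. Its part in the results below was not tested. A limma fit with that level as a covariate called 0 of 24704 genes, Nfat5 (adjusted p = 0.214) and the carriers included. Because the level separates the groups without overlap, this fit cannot tell its part from that of the group. The SE of Nfat5 grew from 0.23 to 0.92 there. In whole tissue, fewer cells of a type and less RNA per cell cannot be told apart.

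Of the 45 carriers, 11 fell and 4 rose in EC knockout lungs, and 30 were not called. The 15 called members were 33.3% of the family, where 25.5% of all genes were called. By direction, 24.4% of members fell against a background of 13.0%, and 8.89% rose against a background of 12.5%. These shares depended on level. Above the median of mean level, 3 of 28 carriers rose and 8 fell, against 2880 higher and 2908 lower of 12352 genes. There the share of carriers called was below that of all genes, while the share that fell was only slightly above that of all genes. With 28 carriers, either difference comes to few genes. The median log2 fold change was −0.17 over the family and 0.04 over all genes. Of the called members, 8 fell and 2 rose by more than 2-fold. The groups did not overlap at 24 members (53.3%), where 41.9% of all genes showed this. The single arrays behind these counts mattered. Without control replicate 3 the counts were 4 lower and 2 higher, and without control replicate 1 they were 6 lower and 2 higher. Calls over all genes also dropped in those fits, to 1491 lower and 1391 higher without control replicate 3 and to 1615 lower and 1526 higher without control replicate 1, against 3209 lower and 3083 higher with all arrays.

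**Figure D1:**
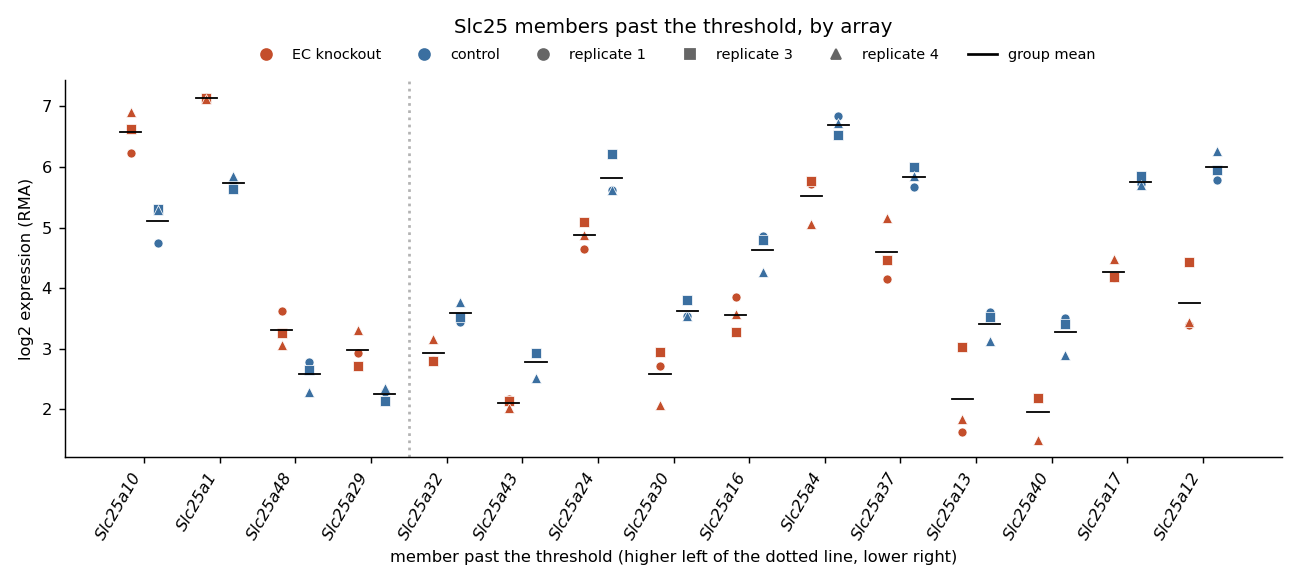
Log2 expression of the 15 called Slc25 members on each array, with EC knockout arrays in orange left of control arrays in blue; marker shape gives the replicate number and bars the group means. The groups do not overlap at any of the 15 genes, 4 of which lie higher and 11 lower in EC knockout lungs.

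The carriers of di- and tricarboxylates held both of the large rises: 2 of 4 rose and none fell. Slc25a10, which exchanges malate and succinate for phosphate, stood at 6.23, 6.63 and 6.90 on EC knockout replicates 1, 3 and 4, and at 4.74, 5.30 and 5.29 on the control arrays of the same numbers. Every EC knockout array lay above every control array, and the rise was 1.47 ± 0.25, or 2.77-fold (adjusted p = 0.00446). Slc25a1, the citrate carrier that hands acetyl units to cytosolic lipid synthesis, stood at 7.15, 7.14 and 7.13 in EC knockout lungs, against 5.75, 5.63 and 5.85 in control lungs. Its 3 EC knockout values differed from each other by less than any other called member's, with an SD of 0.01, and the rise was 1.40 ± 0.18, or 2.63-fold (adjusted p = 0.00221). The exchanger of oxoglutarate and malate, Slc25a11, was not called (0.18, 95% interval −0.29 to 0.64), nor was the oxodicarboxylate carrier Slc25a21 (−0.17, −0.62 to 0.29), whose means lay below the arrays' lower quartile in both groups. Slc25a10 and Slc25a1 were called in each of the 14 alternative settings planned for this report.

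RefSeq promoter windows of GRCm38.p6, from 250 bases before to 50 after a listed start of the gene, were found for 35 of the 45 members. They are printed here for the 2 large rises and for the largest fall, Slc25a12, to show how unlike these starts are; Slc25a10 lies at chr11:120491587-120491886 on the plus strand, Slc25a1 at chr16:17928170-17928469 on the minus strand and Slc25a12 at chr2:71367706-71368005 on the minus strand. Capitals mark CCAAT and GGGCGG on either strand, the core letters of the CCAAT box and the GC box.
Slc25a10: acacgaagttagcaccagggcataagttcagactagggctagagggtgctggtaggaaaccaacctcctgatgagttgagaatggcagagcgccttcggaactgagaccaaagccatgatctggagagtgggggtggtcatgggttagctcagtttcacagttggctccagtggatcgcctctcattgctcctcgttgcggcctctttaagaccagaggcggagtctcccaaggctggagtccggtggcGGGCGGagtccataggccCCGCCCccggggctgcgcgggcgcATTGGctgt
Slc25a1: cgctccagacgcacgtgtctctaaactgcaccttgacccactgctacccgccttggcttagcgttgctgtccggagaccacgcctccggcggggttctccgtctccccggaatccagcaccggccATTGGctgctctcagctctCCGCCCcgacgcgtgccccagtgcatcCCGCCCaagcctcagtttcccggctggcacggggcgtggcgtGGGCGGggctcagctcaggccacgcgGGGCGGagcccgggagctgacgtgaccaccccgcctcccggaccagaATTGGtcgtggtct
Slc25a12: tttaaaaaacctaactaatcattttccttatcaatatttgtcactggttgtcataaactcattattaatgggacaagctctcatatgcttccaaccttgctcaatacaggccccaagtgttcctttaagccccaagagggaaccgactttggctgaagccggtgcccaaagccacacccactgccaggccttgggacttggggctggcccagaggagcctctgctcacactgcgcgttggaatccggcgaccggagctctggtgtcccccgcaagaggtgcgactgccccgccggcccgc
The window of Slc25a10 held CCAAT once and GGGCGG 2 times, that of Slc25a1 held them 2 and 4 times, and that of Slc25a12 held neither. Over 32851 windows of this length, 37.4% held CCAAT and 35.7% held GGGCGG. The 35 members with an entry had 45 windows in all, some members having several, and over these the shares were 48.9% and 82.2%. Over 19491 windows of protein-coding genes, 48.4% held GGGCGG. Among members with an entry, GGGCGG was in all 4 that rose, in 7 of 9 that fell and in 18 of 22 that were not called. The core TGGAAA, bound by NFAT proteins including NFAT5, was in none of the 13 called members with an entry and in 6 of 22 members not called. Counted by window, it was in 13.3% of member windows, 19.3% of protein-coding windows and 21.4% of all windows. These matches describe letters in a short window and say nothing of binding.

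Among the 13 carriers of amino acids and carnitine, 2 rose and 2 fell. The falls were the paired aspartate and glutamate carriers of the malate-aspartate shuttle, which brings the electrons of cytosolic NADH into mitochondria. Slc25a12, the aralar carrier, stood at 3.39, 4.44 and 3.45 on EC knockout arrays and at 5.79, 5.95 and 6.27 on control arrays. Its fall of −2.25 ± 0.30, or 4.74-fold (adjusted p = 0.00238), was the largest of the family, and 60 genes (0.243%) had a fold change as low or lower, itself included. Slc25a13, called citrin in liver, stood at 1.62, 3.03 and 1.84 in EC knockout lungs, against 3.61, 3.52 and 3.12 in control lungs. For both carriers EC knockout replicate 3 was the highest of its group, and for Slc25a13 it lay just below the lowest control array. The fall of Slc25a13 was −1.25 ± 0.35 (adjusted p = 0.0304). That call was lost when any 1 array other than EC knockout replicate 3 was left out (adjusted p = 0.111 without control replicate 1 and 0.107 without control replicate 3), while Slc25a12 kept its call in every planned setting.

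Both rises among amino acid and carnitine carriers were smaller. Slc25a48, linked to choline import, stood at 3.62, 3.26 and 3.07 on EC knockout arrays and 2.79, 2.65 and 2.29 on control arrays, a rise of 0.74 ± 0.23 (adjusted p = 0.0413). Slc25a29, which carries basic amino acids, stood at 2.92, 2.72 and 3.30 in EC knockout lungs and 2.28, 2.14 and 2.35 in control lungs, a rise of 0.73 ± 0.21 (adjusted p = 0.0336). At both genes all EC knockout arrays were above all control arrays. The calls of both were lost without control replicate 1, 3 or 4, and control means of 2.58 and 2.25 lay not far above the lower quartile. Slc25a48 also lost its call without EC knockout replicate 1 (adjusted p = 0.0916) or 3 (0.0694), and Slc25a29 without EC knockout replicate 4 (0.0760). Nor was Slc25a48 called with an intensity trend and robust variance (0.0562) or with cyclic loess scaling (0.0531). The other 9 members of the group were not called: the carnitine carrier Slc25a20, the ornithine carriers Slc25a15 and Slc25a2, the glutamate carriers Slc25a18 and Slc25a22, the glycine carrier Slc25a38, the branched-chain amino acid carrier Slc25a44, and Slc25a45 and Slc25a47. Their log2 fold changes ran from −0.58 at Slc25a15 to 0.39 at Slc25a38. Slc25a45 was the most uneven, at 2.64, 4.35 and 4.55 on EC knockout arrays, against 3.95, 3.97 and 3.97 on control arrays.

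**Figure D2:**
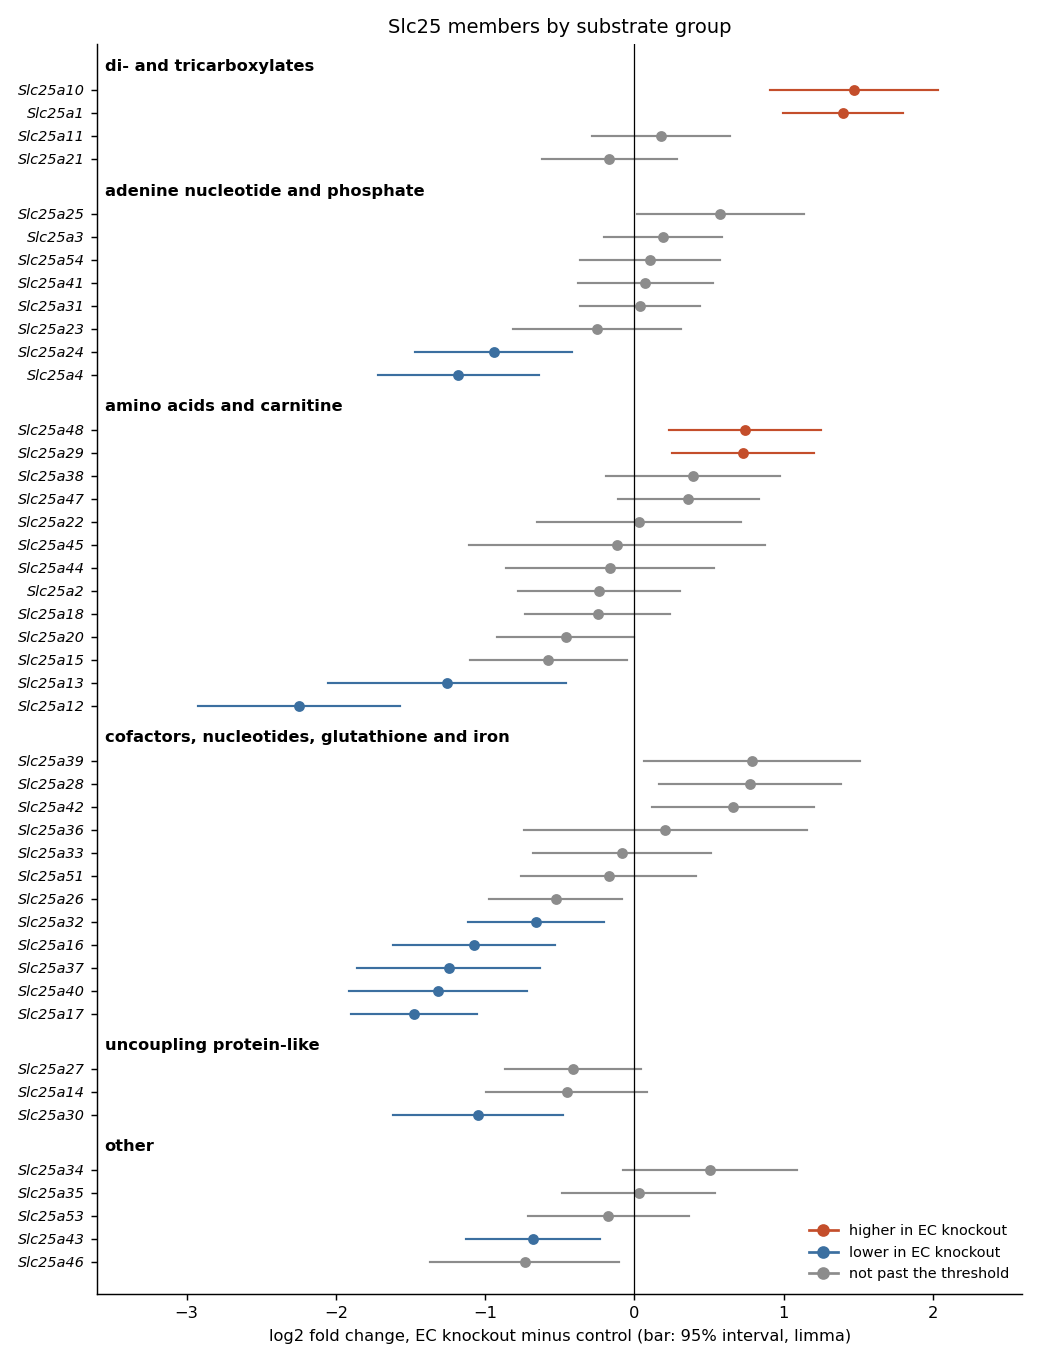
Log2 fold change of EC knockout minus control for the 45 Slc25 members, grouped by substrate, with points for the estimate and bars for limma's 95% interval; orange is higher, blue lower and grey not called. Slc25a12 (−2.25) lies farthest below 0, followed by Slc25a17 (−1.48), and Slc25a10 (1.47) and Slc25a1 (1.40) lie farthest above it.

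The carriers of cofactors, nucleotides, glutathione and iron gave 5 of the 11 falls, and none of the 12 members rose. Slc25a17, the peroxisomal carrier of coenzyme A and related cofactors, stood at 4.16, 4.19 and 4.47 on EC knockout arrays, against 5.72, 5.84 and 5.70 on control arrays. The groups lay over 1 log2 unit apart at their nearest arrays, with a fall of −1.48 ± 0.19 (adjusted p = 0.00221). Slc25a40, a relative of the mitochondrial glutathione importer, stood at 2.18, 2.19 and 1.49 in EC knockout lungs and 3.51, 3.41 and 2.89 in control lungs. Its fall was −1.32 ± 0.26 (adjusted p = 0.00834). The EC knockout mean of 1.96 lay below the lower quartile, where background is not known, so the size of this fall is uncertain. Slc25a37, the iron carrier mitoferrin-1 of heme-forming cells, stood at 4.15, 4.47 and 5.16 on EC knockout arrays and 5.66, 6.002 and 5.85 on control arrays, a fall of −1.24 ± 0.27 (adjusted p = 0.0116). Slc25a16, a coenzyme A carrier, stood at 3.85, 3.27 and 3.57 in EC knockout lungs, against 4.86, 4.79 and 4.26 in control lungs, a fall of −1.07 ± 0.24 (adjusted p = 0.0127). Slc25a32, which brings folate and FAD into the matrix, fell by 0.66 ± 0.20 on the log2 scale (adjusted p = 0.0416). Without control replicate 3 the adjusted p was 0.0570 for Slc25a37, 0.0623 for Slc25a16 and 0.113 for Slc25a32, all above the threshold. Leaving out control replicate 1 gave 0.0614 for Slc25a16 and 0.0849 for Slc25a32. The adjusted p of Slc25a32 was also above the threshold with EC knockout replicate 1 (0.0788), EC knockout replicate 3 (0.0966) or control replicate 4 (0.136) left out.

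Red cell precursor genes, which mark the cells known for Slc25a37, did not separate the groups: 0 of 5 measured were called, and their mean level was 2.95 to 4.34 on EC knockout arrays and 3.24 to 4.05 on control arrays. Their part in the fall of Slc25a37 was not tested. The 7 members of the cofactor group that were not called were the mitoferrin Slc25a28, the glutathione carrier Slc25a39, the coenzyme A carrier Slc25a42, the pyrimidine nucleotide carriers Slc25a33 and Slc25a36, the NAD carrier Slc25a51 and the S-adenosylmethionine carrier Slc25a26. Their log2 fold changes ran from −0.53 at Slc25a26 to 0.79 at Slc25a39.

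Carriers of adenine nucleotides and phosphate gave 2 falls and no rise among 8 members. Slc25a4, the ADP/ATP carrier of heart and muscle, stood at 5.72, 5.77 and 5.06 on EC knockout arrays, against 6.83, 6.53 and 6.73 on control arrays. All EC knockout values lay below the control values, and the fall was −1.18 ± 0.24, or 2.27-fold (adjusted p = 0.00857). The phosphate carrier Slc25a3, which feeds the same ATP synthase, stood at 6.69, 6.74 and 6.77 in EC knockout lungs and 6.55, 6.58 and 6.50 in control lungs. Those groups did not overlap either, but the difference of 0.19 ± 0.17 was not called (95% interval −0.20 to 0.58). The mean level of 9 heart muscle genes was 4.60 to 5.17 on EC knockout arrays and 4.41 to 4.63 on control arrays. The ranges overlapped, and of these genes 3 were higher and 1 was lower. The part of heart muscle in the fall of Slc25a4 was not tested. Slc25a24, which exchanges ATP-Mg for phosphate under the control of calcium, fell by 0.94 ± 0.23 on the log2 scale (adjusted p = 0.0186), and this call was lost without control replicate 3 (0.0816). Its relatives Slc25a23 (−0.25 ± 0.25) and Slc25a25 (0.58 ± 0.25) were not called, nor were Slc25a31, Slc25a41 and Slc25a54, at 0.04 to 0.10. Slc25a31 and Slc25a41 lay below the lower quartile in both groups.

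Among uncoupling protein-like carriers 1 of 3 fell. Slc25a30, known from kidney mitochondria, stood at 2.71, 2.95 and 2.08 on EC knockout arrays and 3.53, 3.81 and 3.55 on control arrays, a fall of −1.05 ± 0.25 (adjusted p = 0.0166). It lost the call without control replicate 1 (0.0552) or 3 (0.0762). Slc25a14 and Slc25a27 stood at −0.45 and −0.41 and were not called. Of the 5 remaining members 1 fell: Slc25a43, by 0.68 ± 0.20 on the log2 scale (adjusted p = 0.0345), a call lost without control replicate 1 (0.125) or 3 (0.135) and without EC knockout replicate 3 (0.0614) or 4 (0.0706). Its EC knockout mean of 2.11 lay close to the lower quartile of 2.02. The others were not called, from −0.73 at Slc25a46, which takes part in the shaping of mitochondria, to 0.51 at Slc25a34, with Slc25a35 and Slc25a53 between them.

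The 30 members that were not called had log2 fold changes from −0.73 to 0.79. Their 95% intervals lay within a 2-fold change in either direction at 21 of them and reached past it at 9. At 9 of the 30 the groups did not overlap, 5 with EC knockout arrays below and 4 above. The 6 brightest of the 30 were Slc25a39, Slc25a3, Slc25a23, Slc25a51, Slc25a46 and Slc25a36. Slc25a23 stood at 5.49, 6.31 and 6.27 in EC knockout lungs, against 6.27, 6.21 and 6.34 in control lungs. Slc25a51 stood at 5.86, 5.83 and 5.13 on EC knockout arrays and 6.04, 5.83 and 5.48 on control arrays. Both overlapped. Slc25a46 stood at 5.60, 5.66 and 4.70 in EC knockout lungs and 6.04, 6.27 and 5.86 in control lungs, without overlap (adjusted p = 0.0872). Slc25a36 spread most among these, at 6.61, 5.86 and 4.82 on EC knockout arrays and 5.30, 6.05 and 5.32 on control arrays (0.21 ± 0.42).

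EC knockout arrays varied more than control arrays, with a larger SD at 36 of 45 members (median SD 0.32 and 0.19 log2 units) and at 67.0% of all genes.

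Related carriers with like substrates were compared in 10 pairs. The groups did not overlap in the difference between the members of 7 pairs, each of which holds a called member, and overlapped in the 3 pairs that hold none; among single genes 41.9% did not overlap. The count therefore repeats in part the calls given above. The within-array difference in log2 expression was compared between groups for each pair by a two-sided exact permutation test, where 3 arrays against 3 cannot give a p below 0.1. Slc25a37 minus Slc25a28 was −1.18, −1.03 and −1.09 on EC knockout arrays, against 0.97, 1.09 and 0.68 on control arrays, a shift of −2.02 (exact p = 0.1, adjusted over the pairs 0.143). Slc25a28, mitoferrin-2, which serves cells outside the red lineage, stood at 5.33, 5.50 and 6.25 in EC knockout lungs and 4.69, 4.91 and 5.16 in control lungs. All EC knockout arrays were higher, yet its difference of 0.77 ± 0.27 missed the call (adjusted p = 0.0658). For the glutathione carriers, Slc25a40 minus Slc25a39 shifted by −2.11 (exact p = 0.1, adjusted 0.143). Slc25a39, the glutathione importer itself, stood at 6.39, 7.29 and 7.60 on EC knockout arrays and 6.12, 6.13 and 6.66 on control arrays, which overlapped (0.79 ± 0.32, adjusted p = 0.105). The coenzyme A carriers Slc25a16 and Slc25a42 shifted apart by −1.73, with the same p values. Slc25a42 stood at 4.88, 4.03 and 4.42 in EC knockout lungs, against 3.90, 3.70 and 3.75 in control lungs (0.66 ± 0.24, adjusted p = 0.0756).

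The calcium-regulated pair Slc25a24 and Slc25a25 shifted by −1.52, Slc25a4 and Slc25a31 by −1.22, Slc25a12 and Slc25a13 by −0.99, and Slc25a24 and Slc25a23 by −0.69, each without overlap of the groups and with the smallest p the design allows. In the case of Slc25a12 and Slc25a13 both members fell, by unequal amounts. The groups overlapped for Slc25a33 and Slc25a36 (−0.29, exact p = 0.9), Slc25a22 and Slc25a18 (0.27, 0.4) and Slc25a15 and Slc25a2 (−0.34, 0.5). The smallest adjusted p over the 10 pairs was 0.143.

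**Figure D3:**
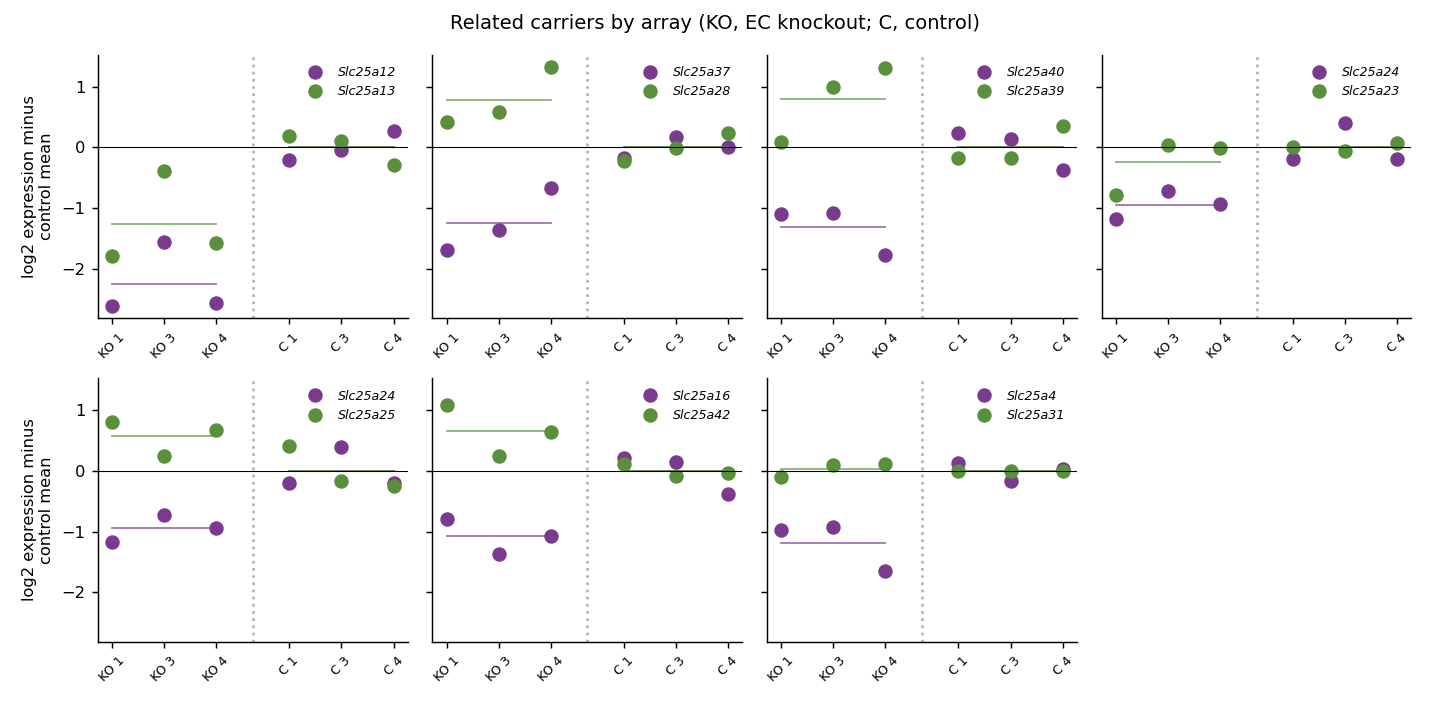
Log2 expression of each gene minus its mean over the control arrays, by array (KO, EC knockout; C, control), for the 7 pairs of related carriers whose within-array difference did not overlap between groups; lines mark group means. Slc25a28 and Slc25a39 lie above 0 on the EC knockout arrays where their relatives Slc25a37 and Slc25a40 lie below it.

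The size of the gene moved with these differences. Across the 45 members, fold change and gene span (start to end in RefSeq) had a Spearman rho of −0.49, where the members share the same 6 arrays. Across 19686 protein-coding genes rho was −0.32. The 11 members that fell had a median span of 33.7 kb and the 4 that rose 9.66 kb. Among the 23 members at or below the family's median span of 22.5 kb, 3 rose and 2 fell; among the 22 longer ones 1 rose and 9 fell. Protein-coding genes split at the same span were 17.0% higher and 5.96% lower when shorter, and 8.56% higher and 26.4% lower when longer. Slc25a4, at 3.90 kb, fell although short, and Slc25a48, at 34.4 kb, rose although long. Among the pairs of related carriers, Slc25a16 and Slc25a42 span 25.9 and 27.9 kb. In the pairs with larger shifts the member that fell was the longer. Slc25a37 and Slc25a28 span 43.7 and 11.2 kb, and Slc25a40 and Slc25a39 span 32.1 and 5.71 kb.

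When the trend with gene span was removed from each array, 12 of the 15 calls remained, and Slc25a13, Slc25a43 and Slc25a29 lost theirs. Slc25a12 then stood at −1.87, Slc25a17 at −1.26, Slc25a4 at −1.50, Slc25a10 at 1.24 and Slc25a1 at 1.08, all still called (adjusted p = 0.00367 to 0.00762). The family's median was −0.26 in that fit.

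**Figure D4:**
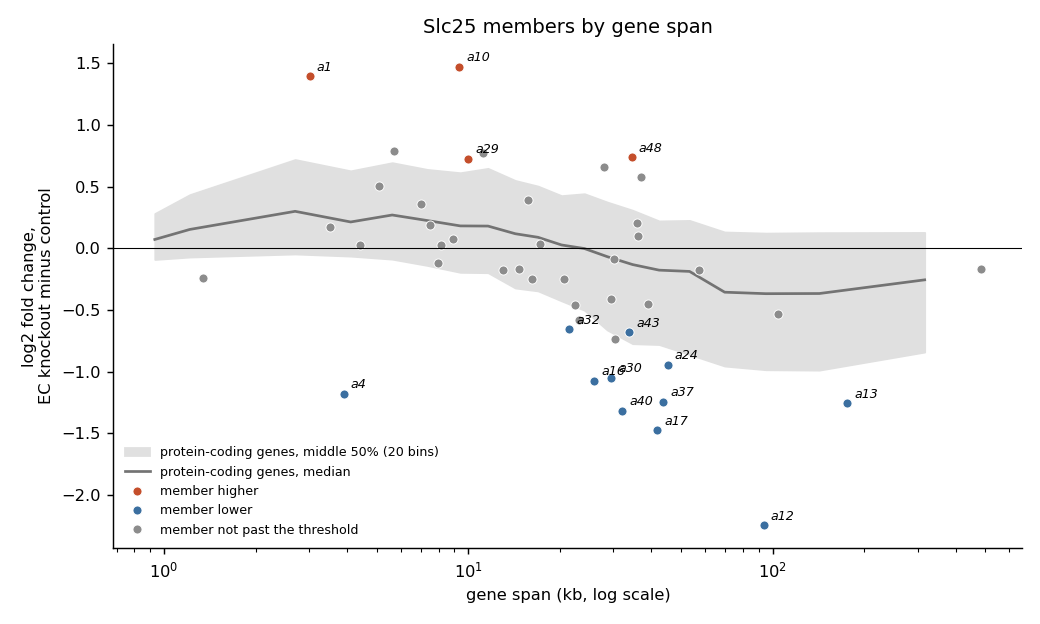
Log2 fold change of EC knockout minus control against gene span in kb (log scale) for the Slc25 members, over the median (line) and middle 50% (band) of protein-coding genes in 20 bins of span. Slc25a12 (−2.25), Slc25a4 (−1.18), Slc25a10 (1.47) and Slc25a1 (1.40) lie outside the band.

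Genes that work with the carriers were counted in 10 lists, each set beside the backgrounds of 12.5% higher and 13.0% lower and the median of 0.04 over all genes. Above the median of mean level 2880 of 12352 genes were higher and 2908 lower, which are larger shares than these backgrounds. That level held 22 of 23 citrate cycle genes, 17 of 18 carnitine and beta-oxidation genes and 13 of 14 ATP synthase genes. It also held 14 of 16 carrier import genes, 16 of 16 heme and iron-sulfur genes and 8 of 9 calcium uniporter and porin genes. For NADH shuttle enzymes it held 6 of 6, for biogenesis regulators 9 of 13 and for one-carbon and glycine genes 8 of 12. Of superfamily genes with other symbols it held 3 of 4. The proteins that import carriers from the cytosol, through the outer membrane pore and the TIM22 complex, included 5 rises and 1 fall among 16 genes (median log2 fold change 0.50). Timm13, a chaperone of the intermembrane space, rose by 1.56 ± 0.20, Timm22, the insertion channel, by 1.09 ± 0.20 and Tomm40, the outer membrane pore, by 0.98 ± 0.22. Tomm70a, the receptor that recognises carrier precursors, was the 1 that fell, at −1.32 ± 0.22. Adjusted p of the named 4 lay between 0.00228 and 0.0123. ATP synthase and its factors showed 5 rises among 14 genes and 0 falls (median 0.29), with Atp5k at 1.25 ± 0.23, Atp5e at 1.21 ± 0.34, Atp5g3 at 0.75 ± 0.20 and Atp5d at 0.72 ± 0.22. With the span trend removed 1 gene of the list was called. That count was 1 without control replicate 1 or 3, 2 without EC knockout replicate 3 and 3 without EC knockout replicate 1 or 4.

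Enzymes of the citrate cycle and pyruvate entry, which make and use the substrates of Slc25a1 and Slc25a10, gave 8 falls and 2 rises among 23 genes (median −0.52). Pyruvate carboxylase, Pcx, rose by 1.47 ± 0.19, standing at 5.92, 5.65 and 5.86 on EC knockout arrays and 4.52, 4.28 and 4.21 on control arrays. Idh3g, a subunit of NAD-dependent isocitrate dehydrogenase, was at −1.27 ± 0.18, the pyruvate dehydrogenase subunit Pdha1 at −1.11 ± 0.19 and its partner enzyme Dld at −1.30 ± 0.27. The other isocitrate dehydrogenase subunits Idh3a and Idh3b, named after their values were seen, also fell (−1.94 ± 0.46 and −1.14 ± 0.26). Leaving out control replicate 1 or 3 left 4 called genes in the list. Adjusted p for the 6 named genes lay between 0.00228 and 0.0159. Fatty acid oxidation and the carnitine shuttle, served by Slc25a20, gave 6 falls and 2 rises among 18 genes (median −0.41). The acyl-CoA dehydrogenase Acadm fell by 1.64 ± 0.25, the trifunctional protein subunit Hadhb by 1.56 ± 0.24 and Etfdh, which passes the electrons on, by 1.44 ± 0.21, while the short-chain enzyme Acads rose by 1.36 ± 0.20 (adjusted p = 0.00278 to 0.00319). The EC knockout mean of Hadhb, 2.06, lay close to the lower quartile of 2.02. Without any 1 of the control arrays 5 genes of that list were called. Slc25a20 itself was −0.46 ± 0.20 (adjusted p = 0.131).

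Beside Slc25a12 and Slc25a13, the enzymes of the NADH shuttles held 1 rise and 1 fall among 6 genes. The glycerophosphate shuttle's mitochondrial enzyme Gpd2 fell by 1.79 ± 0.34 (adjusted p = 0.00653) and its cytosolic enzyme Gpd1 rose by 0.91 ± 0.22 (0.0177). The malate-aspartate enzymes were not called, with Got2 at 0.62, Mdh1 at −0.93, Got1 at −0.86 and Mdh2 at 0.18. Without control replicate 3 the list held 1 call. Folate and glycine enzymes of mitochondria, served by Slc25a32 and Slc25a38, held 2 rises among 12 genes and 0 falls. Shmt2, which makes glycine, stood at 5.30, 5.34 and 5.41 on EC knockout arrays and 3.65, 3.29 and 4.20 on control arrays, a rise of 1.64 ± 0.25, and Fpgs, which traps folates in the cell, rose by 1.39 ± 0.22 (adjusted p = 0.00311 and 0.00363).

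Of 16 heme and iron-sulfur genes 2 rose and 1 fell: the heme synthesis enzyme Alad at 1.35 ± 0.20, the porphyrin transporter Tmem14c at 0.70 ± 0.19 and the transferrin receptor Tfrc at −0.998 ± 0.21 (adjusted p = 0.00311 to 0.0286), with 1 call left without control replicate 1 or 3. Calcium uniporter and porin genes held 2 rises and 2 falls among 9 genes, with the sodium-calcium exchanger Slc8b1 at 1.27 ± 0.19, Letm1 at 0.65 ± 0.18, the porin Vdac2 at −1.08 ± 0.23 and the gatekeeper Micu2 at −0.89 ± 0.21 (adjusted p = 0.00313 to 0.0288). These 4 calls became 1 without control replicate 1 and 2 without control replicate 3 or 4. Of 13 regulators of mitochondrial biogenesis 3 fell and 1 rose: the coactivator Ppargc1a at −1.30 ± 0.22, the mitochondrial transcription factor Tfb2m at −1.14 ± 0.20, Gabpa at −1.27 ± 0.27 and the mitochondrial RNA polymerase Polrmt at 0.98 ± 0.18 (adjusted p = 0.00448 to 0.0105). The EC knockout mean of Tfb2m lay below the lower quartile.

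Of 4 measured genes of the same superfamily that carry other symbols, 2 fell and 1 rose. Ucp1, the uncoupling protein of brown fat, stood at 3.20, 2.94 and 1.73 on EC knockout arrays and 5.16, 5.24 and 4.44 on control arrays, a fall of −2.33 ± 0.39 (adjusted p = 0.00426). The mean level of 5 fat markers, Ucp1 included, was 2.48 to 3.04 on EC knockout arrays and 3.11 to 3.93 on control arrays. The 1 of 5 called was Ucp1 itself, so this mean repeats its fall in part. Adipoq (−1.13) and Cidea (−0.72) lay below 0 and Plin1 (0.59) and Lep (0.32) above it, none of them called. The part of fat in this result was not tested. The outer membrane relatives went apart: Mtch1 rose by 1.52 ± 0.26 and Mtch2, the insertase for outer membrane proteins, was at −1.13 ± 0.23 (adjusted p = 0.00444 and 0.00808). Ucp3 was not called (−0.36 ± 0.23).

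**Figure D5:**
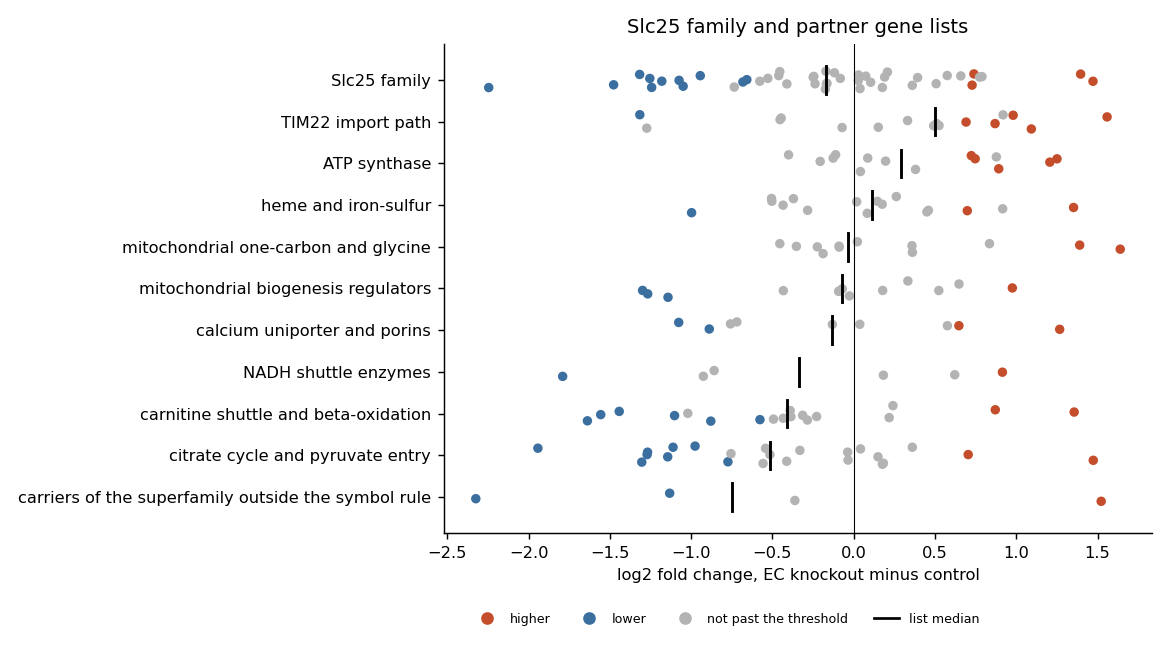
Log2 fold change of EC knockout minus control for the genes of the Slc25 family and of the 10 partner lists, with black bars for list medians; orange is higher, blue lower and grey not called. The import path has the highest median (0.50), and the citrate cycle (−0.52) and the superfamily genes with other symbols (−0.75) the lowest.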

How the data were processed

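The 6 arrays of whole-lung RNA were all used. The authors summarised probe sets with RMA, per the submitters' processing notes, and deposited log2 levels. The RMA version is not stated in the material used here. The columns share nearly the same quantiles. No detection calls were used, and precision is limited by having 6 arrays. A gene symbol was given to 24705 of 25428 probe sets, leaving 723 unnamed here; where a symbol came up more than once, its brightest probe set stood for the gene. Entrez identifiers matched RefSeq (GRCm38.p6) for 24673 probe sets and changed 0 symbols.

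Groups were compared with limma 3.58.1 in R 4.3.3 (lmFit, eBayes; no covariate, no filter), adjusted by Benjamini-Hochberg over 24704 genes; the procedure was tested on simulated data. Pairs of carriers were compared by exact permutation in scipy 1.17.1. Labels do not say whether arrays came from separate animals, so p-values measure the spread between these arrays. Whether replicate numbers pair the arrays is not given either. Deviations of same-numbered arrays correlated at −0.01 to 0.06, which cannot exclude a pairing.

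Members, lists and pairs were chosen with earlier results of these data known. Called members were described per array if among the 8 largest rises or falls; partner lists name up to 4 genes of smallest p. Alternatives changed filters, variance model, weights, block, scaling, span trend, unnamed probe sets and single arrays; the snoRNA covariate was added after seeing the data.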

Additional observations from a re-analysis of the deposited data

How the results depend on the processing

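Of the 15 called carriers, Slc25a12, Slc25a17, Slc25a40, Slc25a4, Slc25a1 and Slc25a10 were called in every planned setting that tested them (14 settings; Slc25a40 was not tested above the median level). Leaving out 1 array at a time gave 2 to 5 carriers higher and 4 to 10 lower, against 1391 to 3037 and 1491 to 3122 of all genes. The same ranges were 1 to 4 genes for ATP synthase, 1 to 3 for NADH shuttle enzymes, 4 to 6 for the TIM22 import path, 1 to 5 for calcium uniporter and porins, 5 to 8 for carnitine shuttle and beta-oxidation, 4 to 10 for the citrate cycle, 1 to 4 for heme and iron-sulfur and 2 to 3 for one-carbon and glycine genes. The other planned settings gave 3 to 6 carriers higher and 8 to 12 lower. With the replicate number as a block, 5 carriers were higher and 11 lower; Slc25a28 was gained (adjusted p = 0.0365) and ATP synthase had 3 calls against 5. The labels do not say that these numbers pair the arrays. With the span trend removed ATP synthase had 1 call and one-carbon genes 4 against 2. Above the median level NADH shuttle enzymes had 4 against 2. Taking the snoRNA median as a covariate, limma called 0 carriers and 0 genes in all, and 0 in each partner list (9 carriers and 3577 genes at an unadjusted p under 0.05). That covariate separates the groups without overlap, so the fit cannot tell its part from that of the group. Nfat5 then stood at −2.97 with an SE of 0.92. Slc25a13 stood at 0.85, Slc25a37 at 0.47, Slc25a48 at −0.37 and Gpd1 at −0.14, these 4 with the sign turned. The cause was not tested. Genes below the lower quartile of 2.02 may have changed without being seen.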
